A study of Mus musculus with 5 samples.

Results

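Dopamine receptor genes were examined in chromatin of neuronal nuclei from the striatum of adult mice. The group holds 5 of the 21031 coding genes with a curated RefSeq transcript, namely Drd1a (Drd1 in current nomenclature), Drd2, Drd3, Drd4 and Drd5, and its members were taken by gene symbol. The series has 5 samples of C57BL/6 mice aged 8 weeks, with no transgene or treatment in the labels: 4 chromatin immunoprecipitations with antibodies to H3K4me3, H3K27me3, H3K27ac and RNA polymerase II (Pol II), with 1 library each, and 1 input. The labels name the cells medium spiny neurons, and the nuclei were sorted on NeuN, an antigen of neurons in general. Each deposited list pairs genes with regions near their start sites and with a score of the region over input, whose scale is not stated. There are no replicates, so no difference between samples was tested. Read depth is unknown.

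Dopamine receptors are G protein-coupled receptors. The D1-like receptors, encoded by Drd1a and Drd5, couple to stimulatory G proteins and raise cyclic AMP, and the D2-like receptors, encoded by Drd2, Drd3 and Drd4, couple to inhibitory G proteins and lower it. In the striatum, Drd1a is the receptor gene of direct-pathway and Drd2 that of indirect-pathway medium spiny neurons, so a sort on NeuN pools nuclei that use one receptor or the other. H3K4me3 marks promoters, H3K27ac marks active promoters and enhancers, and H3K27me3 is the mark of Polycomb repression. In pooled nuclei, active and Polycomb marks on the same nucleosomes and the same marks in different cells cannot be told apart. As a check of the labels, all 4 neuronal and all 8 medium spiny neuron markers examined had H3K4me3, H3K27ac and Pol II regions, and 2 of those 8, Tac1 and Penk, had H3K27me3 too (56.6 and 19.4 kb). The 8 interneuron markers, Chat and Pvalb among them, all carried H3K27me3 without H3K27ac and Pol II. H3K27ac and Pol II were each listed at 2 of 5 markers of cortical glutamatergic neurons and at 1 of 3 of dopamine neurons. That dopamine neuron marker was Pitx3, whose 4 region widths equal those of Gbf1, and whether they are the same regions was not examined. Of the glial and endothelial markers, 1 of 4 oligodendrocyte markers (Mbp) had H3K27ac and Pol II, and none of the 4 astrocyte, 4 microglia and 4 endothelial markers did.

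The RefSeq promoter windows of the 5 genes differ in CpG content, a property often linked with H3K4me3 and with Polycomb marks. Shown here are the RefSeq windows of the genes with Pol II regions (Drd1a and Drd2), of the most CpG-rich promoter (Drd5) and of the only member with no region (Drd3). They are given 5′ to 3′ on the strand of the gene with each CG in capitals, from GRCm38.p6 at chr13:54055609-54055908 (minus strand), chr9:49340153-49340452, chr5:38319259-38319558 and chr16:43761971-43762270 (plus strand). Each window of 300 bases runs from 250 bases before the annotated start of a transcript to 50 after it. Whether these annotated starts, that of Drd3 included, are the starts used in these nuclei was not examined.
Drd1a: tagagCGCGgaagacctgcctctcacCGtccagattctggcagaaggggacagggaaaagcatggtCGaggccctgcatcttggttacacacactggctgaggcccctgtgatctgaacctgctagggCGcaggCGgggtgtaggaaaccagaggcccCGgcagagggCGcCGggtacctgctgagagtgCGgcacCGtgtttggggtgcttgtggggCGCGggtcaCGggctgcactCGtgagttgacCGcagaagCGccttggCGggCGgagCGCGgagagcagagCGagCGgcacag
Drd2: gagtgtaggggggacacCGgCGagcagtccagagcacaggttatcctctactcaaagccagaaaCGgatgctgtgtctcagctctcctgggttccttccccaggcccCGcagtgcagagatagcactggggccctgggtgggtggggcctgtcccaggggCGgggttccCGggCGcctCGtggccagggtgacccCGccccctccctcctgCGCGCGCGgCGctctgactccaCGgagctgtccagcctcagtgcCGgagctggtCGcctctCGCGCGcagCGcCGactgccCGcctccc
Drd5: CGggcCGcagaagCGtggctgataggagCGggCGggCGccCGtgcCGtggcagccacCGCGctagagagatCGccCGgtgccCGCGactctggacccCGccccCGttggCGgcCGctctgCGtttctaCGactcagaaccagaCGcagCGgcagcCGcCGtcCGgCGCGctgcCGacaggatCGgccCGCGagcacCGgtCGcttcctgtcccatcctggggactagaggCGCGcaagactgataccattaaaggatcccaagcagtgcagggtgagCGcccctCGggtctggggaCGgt
Drd3: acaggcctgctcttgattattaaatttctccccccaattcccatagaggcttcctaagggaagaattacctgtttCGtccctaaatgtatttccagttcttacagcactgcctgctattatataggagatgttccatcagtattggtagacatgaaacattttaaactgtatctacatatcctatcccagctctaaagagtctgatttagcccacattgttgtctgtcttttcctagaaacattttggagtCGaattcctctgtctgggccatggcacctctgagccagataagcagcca

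The Drd5 window held 38 CG pairs, at an observed over expected ratio of 1.02, higher than or equal to 93.4% of 20488 coding promoter windows. The Drd1a window above held 23, with a ratio of 0.74 (percentile 64.1), and that of Drd2 also held 23, with 0.62 (percentile 52.7). The Drd4 window held 15, with 0.59 (percentile 50.6), and that of Drd3 held 2, with 0.16 (percentile 16.0). The median window of all coding genes held 14.0 CG pairs at a ratio of 0.59. RefSeq gives Drd1a a further start site, whose window held 6 CG pairs at a ratio of 0.23, and the region lists do not say which of them the Drd1a regions surround. The letters GGGCGG, searched on both strands, were found in the windows of Drd1a, Drd2, Drd4 and Drd5 and not in that of Drd3, against 47.6% of coding windows. TGACGTCA (in 2.30% of coding windows) and TATAAA (in 12.4%) were found in none of the 6 windows. In genes with H3K4me3 and H3K27me3 alone, as at Drd4 and Drd5, the median ratio was 0.52, and in genes with no region, as at Drd3, it was 0.21. In genes with regions of all 4 antibodies it was 0.77, above the windows of Drd1a (0.74 and 0.23) and Drd2 (0.62), which had all 4.

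**Figure D1:**
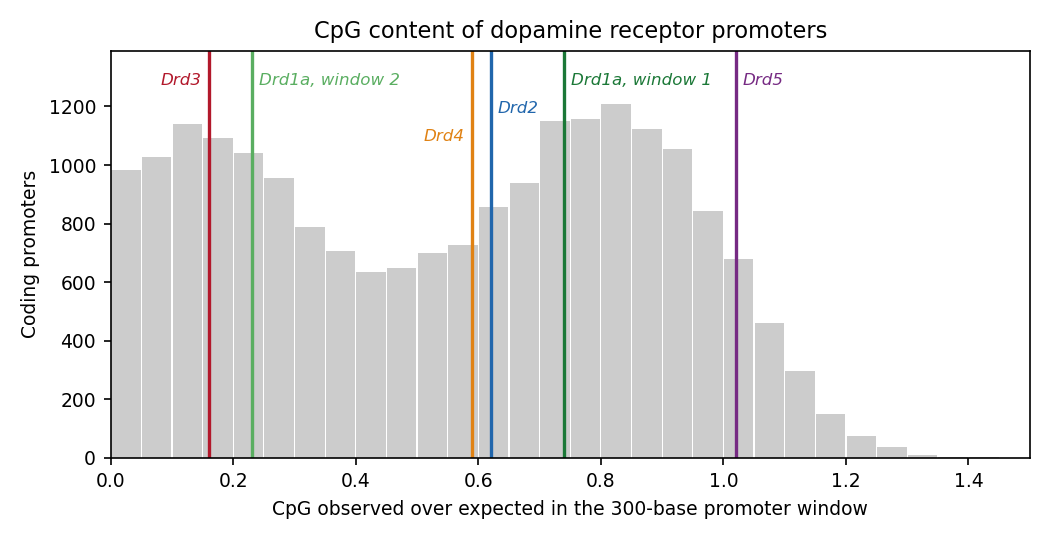
CpG observed over expected ratio of the 300-base promoter windows of coding genes (x axis, histogram with the number of windows on the y axis), with vertical lines at the windows of the dopamine receptor genes. Drd5 (1.02) lies near the upper end and Drd3 (0.16) near the lower end, with Drd4 (0.59), Drd2 (0.62) and the first Drd1a window (0.74) between them.

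The first question was which receptor genes carried which mark. Drd1a and Drd2, the striatal receptor genes, had regions of all 4 antibodies, Drd4 and Drd5 had H3K4me3 and H3K27me3 alone, and Drd3 had no region in any list. H3K4me3 was thus listed at 4 of 5 members, against 68.4% of coding genes, and H3K27me3 at 4 of 5, against 42.5%. H3K27ac and Pol II were each listed at 2 of 5, against 51.5% and 41.7%. With so few members, the counts for H3K4me3, H3K27ac and Pol II lie near the background. H3K4me3 and H3K27me3 occurred together at 4 of 5 members (24.2% of coding genes), H3K27ac and H3K27me3 at 2 (10.4%), and all 4 antibodies at 2 (5.93%). No antibody was listed at 1 member, against 13.3% of coding genes. In the upper 50% of scores of each list, none of the 4 H3K4me3 regions was kept, and with lists of equal length that of Drd1a alone was. H3K27me3 at the 4 genes was kept in both settings. The D1-like pair and the D2-like group were each divided, with 1 gene of each carrying all 4 marks.

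H3K4me3 regions of the members were above the list median in width and below it in score, some by little. By width, Drd4 and Drd5 stood at percentiles 63.2 and 66.3, and by score Drd1a stood at 47.1. Their scores were 6.85 at Drd1a, 5.85 at Drd2, 4.92 at Drd4 and 4.49 at Drd5, all below the median score of 7.05 in the H3K4me3 list. The widths were 10.9, 13.7, 7.0 and 7.2 kb in the same order of genes, all above the list median of 6400 bp. H3K27me3 widths spread most, from 6.7 kb at Drd4 to 129.5 kb at Drd5, a 19.3-fold range, while H3K4me3 widths spread 1.96-fold.

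**Figure D2:**
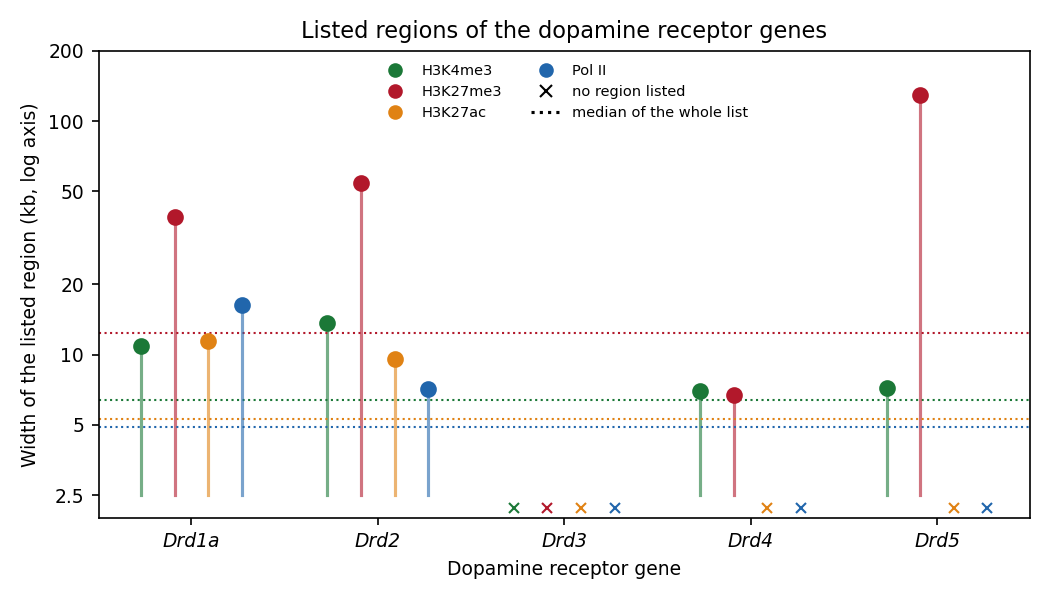
Width of the region listed for each dopamine receptor gene and antibody (y axis, kb, log axis). Points stand for listed regions, crosses for no listed region, and dotted lines for the median width of each whole list. H3K27me3 is the widest mark at Drd1a, Drd2 and Drd5 and about as wide as H3K4me3 at Drd4, and Drd3 has crosses alone.

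Drd1a, the receptor gene of the direct pathway, had the most extended Pol II region of the group. It lies on the minus strand of chromosome 13 (mm9, positions counted from 1). H3K4me3 covered 54142601 to 54153500 (10.9 kb) and H3K27ac covered 54142001 to 54153400 (11.4 kb, score 7.78). Pol II covered 54136801 to 54153100 (16.3 kb, score 3.79). The Pol II region was the 55th widest of 7799 (percentile 99.3 by width and 85.3 by score), and the H3K27ac region was at percentile 98.2 by width and 91.5 by score. H3K4me3 was at percentile 88.0 by width and 47.1 by score. The 3 regions began within 0.4 kb of each other at the upstream side. At the downstream side, Pol II reached 5.8 kb past H3K4me3 and 5.2 kb past H3K27ac.

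That layout was uncommon in the lists. Pol II reached past the downstream end of H3K4me3 in 142 of 8678 coding genes (1.64%), and among these Drd1a had the 13th longest reach. Of the 17 such genes that also had H3K27me3, Drd1a had the longest. H3K27ac was wider than H3K4me3 at Drd1a by 500 bp, which is so in 52 of 10803 genes (0.481%). By that excess Drd1a was 32nd of the 52, and 3rd of the 7 that also had H3K27me3. Pol II was wider than H3K27ac in 8.71% of genes with both, and Drd1a was among them while Drd2 was not. These properties were chosen for the comparison after the values of Drd1a were seen.

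All 3 of those regions lay inside a 38.7 kb H3K27me3 region of Drd1a (54127301 to 54166000, score 3.77, percentile 83.2 by width and 62.4 by score). It reached 12.5 kb past H3K4me3 upstream and 15.3 kb downstream. H3K4me3 filled 28.2% of its length, H3K27ac 29.5% and Pol II 42.1%. The same region is listed for Sfxn1, a mitochondrial serine transporter gene on the opposite strand. Its upstream end ran 1.1 kb into the 5.7 kb H3K4me3 region of Sfxn1 and 0.9 kb into the 5.1 kb H3K27ac region of Sfxn1. On the downstream side, the nearest H3K4me3 region of another gene, Msx2, was 552.6 kb away from this domain. The lists hold only regions tied to a start site, so regions between genes are not seen in them.

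Drd2, the receptor gene of the indirect pathway, lies on the plus strand of chromosome 9. Its 4 marks were nested in order of width. Pol II (49148001 to 49155100, 7.1 kb, score 2.44) lay inside H3K27ac (49146501 to 49156100, 9.6 kb, score 6.38). H3K27ac lay inside H3K4me3 (49146201 to 49159900, 13.7 kb), and H3K4me3 inside H3K27me3 (49139301 to 49193500, 54.2 kb, score 4.53). By width the Drd2 regions were at percentile 92.7 for Pol II, 96.6 for H3K27ac, 93.2 for H3K4me3 and 89.3 for H3K27me3. By score, Pol II stood at percentile 28.9 of its list, lower than the 82.7 of H3K27ac. The marks of active promoters thus took a small part of the H3K27me3 region, 13.1% for Pol II and 17.7% for H3K27ac.

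The Drd2 domain was lopsided. H3K27me3 reached 33.6 kb past H3K4me3 on the downstream side, where the gene body lies, and 6.9 kb on the upstream side. At Drd1a the reach was nearly even, as given above, and at Drd5 it was 77.7 kb downstream and 44.6 kb upstream. All 3 members with H3K4me3 inside H3K27me3 had the longer arm downstream, as did 52.8% of 2295 such genes, so this direction is near the background. The downstream arm of Drd2 was at percentile 76.7 of those genes, against 56.8 for Drd1a and 92.2 for Drd5.

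**Figure D3:**
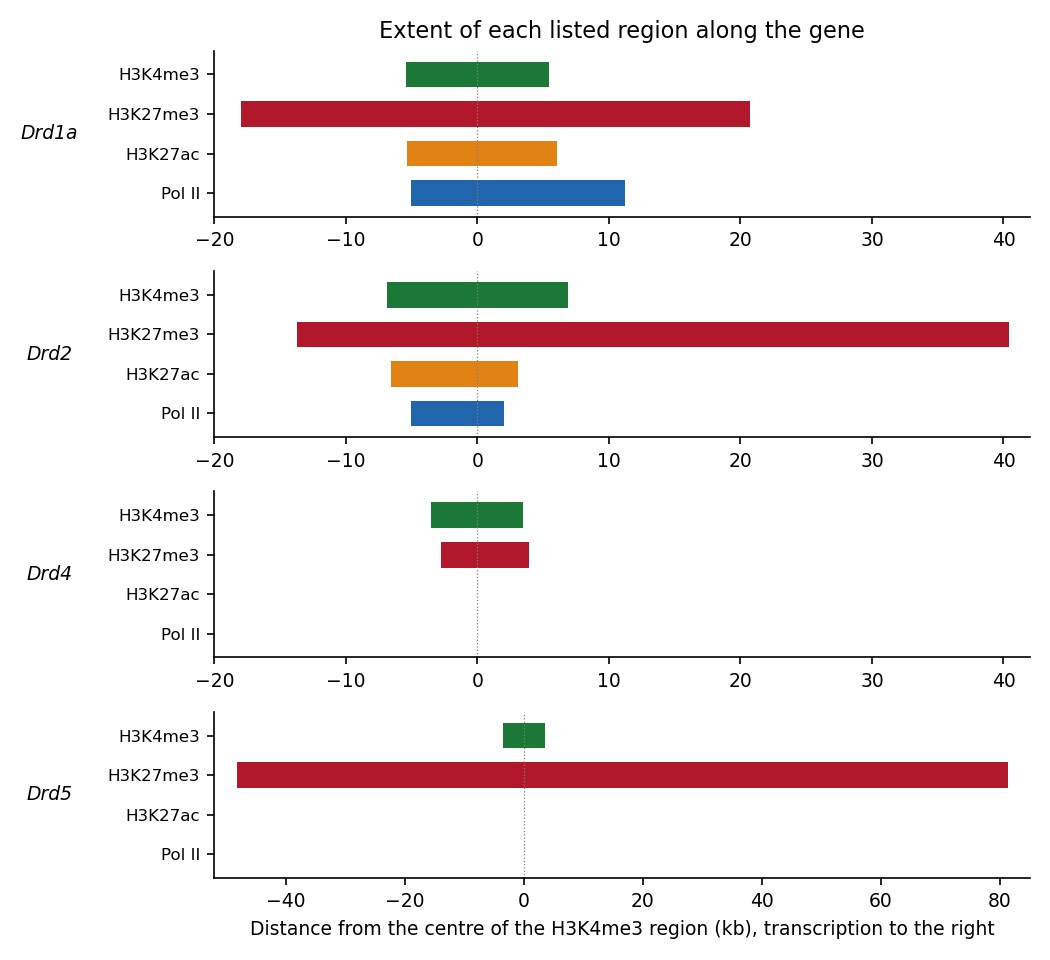
Extent of each listed region at the 4 dopamine receptor genes with regions, by antibody, on an axis of distance from the centre of the H3K4me3 region (kb) with transcription to the right. The axis of Drd5 is longer than those of the others. Pol II at Drd1a passes H3K4me3 downstream by 5.8 kb, the marks of Drd2 are nested, those of Drd4 nearly coincide, and H3K4me3 of Drd5 is a 7.2 kb stretch within 129.5 kb of H3K27me3.

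The nesting at Drd1a and Drd2 was set against all genes with the same marks. Regions of H3K27ac and H3K27me3 overlapped in 79.5% of the 2181 genes listed for both, but H3K27ac lay wholly inside H3K27me3 in only 306 (14.0%), and both Drd1a and Drd2 were among them. Pol II lay inside H3K27me3 in 10.4% of 1344 genes, again with both receptors. H3K4me3, H3K27ac and Pol II were all inside H3K27me3 in 49 of the 1248 genes with all 4 antibodies (3.93%). Drd1a and Drd2 belong to these 49, a set defined after their nesting was seen, in which Drd1a had the 6th widest H3K27ac region, after Sp9, Adora2a, Zfp503, Six3 and Isl1. A wide H3K27me3 region is more likely to hold others inside it, and both receptor domains were wide for the class, with 38.7 and 54.2 kb against a median of 10.7 kb. Within the 1248 genes, Drd1a stood at percentile 99.0 and Drd2 at 98.2 by H3K27ac width. By Pol II width they stood at 99.8 and 96.2. By H3K4me3 score they were low in this class, at percentile 24.6 for Drd1a and 10.3 for Drd2.

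**Figure D4:**
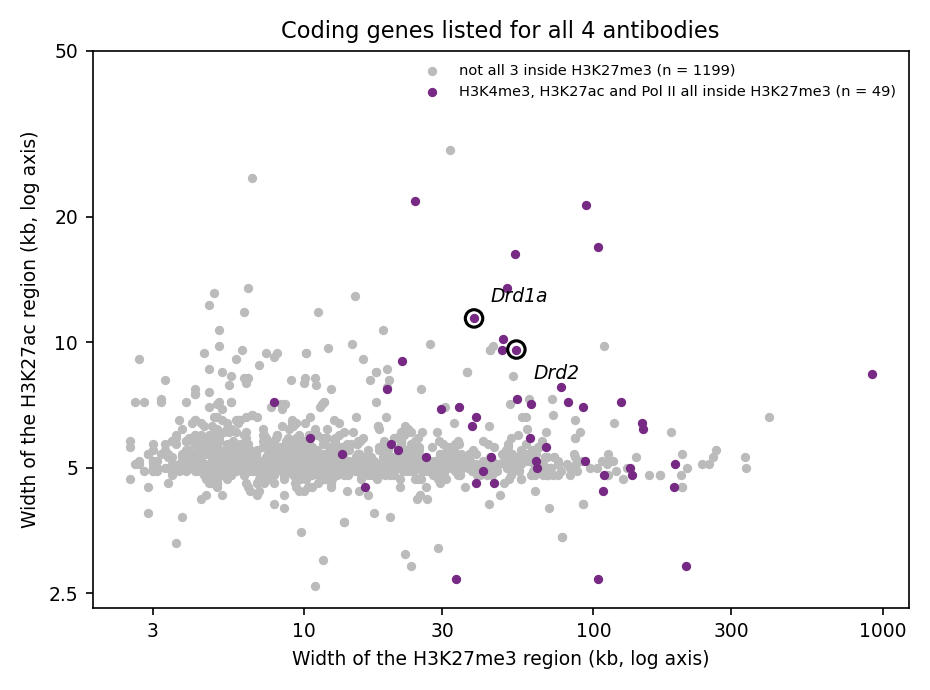
Width of the H3K27ac region (y axis, kb, log axis) against that of the H3K27me3 region (x axis, kb, log axis) for each coding gene listed for all 4 antibodies. Purple points are the 49 genes with H3K4me3, H3K27ac and Pol II all inside H3K27me3. Circles mark Drd1a (11.4 and 38.7 kb) and Drd2 (9.6 and 54.2 kb), which lie above most genes on both axes.

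Drd5 encodes the other D1-like receptor and lies on the plus strand of chromosome 5. Its H3K27me3 region (38663001 to 38792500, 129.5 kb) had the highest score of the group, 11.1. It was at percentile 97.8 of the list by width and 97.9 by score. A 7.2 kb H3K4me3 region (38707601 to 38714800, score 4.49) lay inside it and filled 5.56% of its length. H3K27ac and Pol II were not listed. The same H3K27me3 region is listed for Otop1, a proton channel gene, whose own 6.2 kb H3K4me3 region lies wholly inside it too. The next H3K27me3 regions were 12.3 kb upstream, at Tmem128, and 56.6 kb downstream, a region of 102.9 kb at Slc2a9 and Wdr1. Tmem128 had the nearest H3K27ac region, 8.8 kb beyond the upstream end of the Drd5 domain.

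Drd4 encodes a D2-like receptor and lies on the plus strand of chromosome 7. Its H3K4me3 region (148475701 to 148482700, 7.0 kb) and its H3K27me3 region (148476401 to 148483100, 6.7 kb) nearly coincided. They shared 6300 bp, with H3K4me3 ahead by 0.7 kb upstream and H3K27me3 by 0.4 kb downstream. Overlap of any length occurred in 94.2% of genes with both marks, whereas H3K4me3 lay inside H3K27me3 in 46.6%, as at Drd1a, Drd2 and Drd5 but not at Drd4. In the class of 2823 genes with these marks alone, the H3K27me3 width of Drd4 was at percentile 10.8 and that of Drd5 at 92.6, around a median of 24.9 kb. Their H3K4me3 widths were alike, at percentiles 72.9 and 73.7. By score, the H3K27me3 region of Drd4 (4.52) was close to that of Drd2 (4.53). The nearest H3K27me3 region of other genes, over Sct, Cdhr5 and Irf7, ended 5.4 kb upstream of the H3K4me3 region of Drd4. The nearest H3K27ac and Pol II regions were 27.7 and 28.2 kb downstream, in regions listed for both Deaf1 and Tmem80.

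Drd3, the D2-like receptor gene best known from the ventral striatum, had no row in any of the 4 lists. The lists do not show which transcripts were searched, so no region listed is not the same as no mark present. In the RefSeq gene order its coding neighbours are Tigit and Qtrt2. Tigit, an immune checkpoint receptor gene, had a 9.5 kb H3K27me3 region with a score of 2.55 on chromosome 16 (43660101 to 43669600). Qtrt2, listed as Qtrtd1, had H3K4me3 (6.1 kb), H3K27ac (5.1 kb) and Pol II (4.6 kb) and no H3K27me3.

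The surroundings of Drd2 differed from those of Drd1a. Its H3K27me3 region stood between further H3K27me3 regions, with an 81.7 kb region of Gm4894 ending 3.3 kb before it and a 102.0 kb region of Ankk1 and Ttc12 starting 3.9 kb after it. No H3K27ac region of another gene lay nearer than 272.9 kb upstream (Zw10) or 409.6 kb downstream (Ncam1). Ankk1, the kinase gene next to Drd2 on the opposite strand, had a 13.6 kb Pol II region (49219101 to 49232700, score 3.56) that began 25.6 kb after the end of the Drd2 domain. Its score was above the 2.44 of the Drd2 promoter region. No H3K4me3 or H3K27ac was listed for Ankk1, and of all coding genes only 2, Ankk1 and Tmem54, had H3K27me3 and Pol II alone. Immunoprecipitated DNA carries no strand of transcription, so polymerases of these converging genes cannot be told apart.

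To find genes with a like pattern, the widths of the marks were compared within the same class, as the distance over log10 widths of 4 or 2 libraries. Nearest to Drd1a were Tac1 (distance 0.317), the substance P precursor gene of direct-pathway neurons, then Nr2f1, Eif4a2, Penk, the enkephalin precursor gene of indirect-pathway neurons, and Six3. The Tac1 regions were 9.5 kb for H3K4me3, 56.6 kb for H3K27me3, 6.6 kb for H3K27ac and 12.5 kb for Pol II. Nearest to Drd2 were Nr2f1 (0.072), a nuclear receptor gene, with widths of 14.0, 48.4, 9.6 and 8.0 kb in the same order of marks, and Ccnd2 (0.088), a cyclin gene. Elavl2, Sox2 and Ube2ql1 followed. Cd24a, Trmt44, Vmn1r168, Sinhcaf and C2cd4c were nearest to Drd4. For Drd5 they were Prr5, Plekhg6, Vmn1r54, Smagp and Psg17. When score percentiles were added to the measure, 3 of the 5 genes were kept for Drd1a, 1 for Drd2, none for Drd4 and 2 for Drd5. Penk (0.447) was then nearer to Drd1a than Tac1 (0.508), and Tac1 (0.505) was among the 5 genes nearest to Drd2.

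The dopamine receptors were next set beside the other aminergic receptor families. Of 36 such genes, 26 had H3K4me3 (72.2%, against 68.4% of coding genes), 24 H3K27me3 (66.7%, against 42.5%), 18 H3K27ac (against 51.5%) and 11 Pol II (30.6%, against 41.7%). All 4 were carried by 5 (13.9%, against 5.93%), namely Chrm3, Chrm4, Htr2a, Adra1a and Adra2c. Drd1a and Drd2 make up 2 of 5 dopamine receptor genes with all 4 marks, against 2 of 5 muscarinic, 1 of 12 serotonin, 2 of 9 adrenergic, none of 4 histamine and none of 6 trace amine receptor genes. These counts are too small for the families to be ranked. H3K27ac lay inside H3K27me3 in both dopamine receptor genes with the pair, and in 4 of the 10 others (Chrm3, Htr4, Htr7 and Adra2b). In those 4 the H3K27ac regions were 4.6 to 5.7 kb wide, narrower than the 11.4 kb of Drd1a and the 9.6 kb of Drd2. The widest H3K27ac region of the 36 was 10.5 kb, at Htr1b, which had no H3K27me3.

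The muscarinic receptor gene Chrm4, which encodes the inhibitory receptor of direct-pathway neurons, had Pol II over 18.7 kb and H3K27me3 over 5.2 kb, and Chrm1 had no H3K27me3. No region was listed for Chrm2 and Chrm5, as for Drd3. Adra1d had H3K4me3 inside an H3K27me3 region of 110.4 kb with neither H3K27ac nor Pol II, the same marks as at Drd5, whose 129.5 kb region was wider than any of the 24 listed for the comparison receptors. The trace amine receptor genes had H3K27me3 alone. Region widths and scores were equal at Taar2 and Taar3 (21.4 kb, 2.64), and at Taar4, Taar5 and Taar6 (33.0 kb, 3.12).

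**Figure D5:**
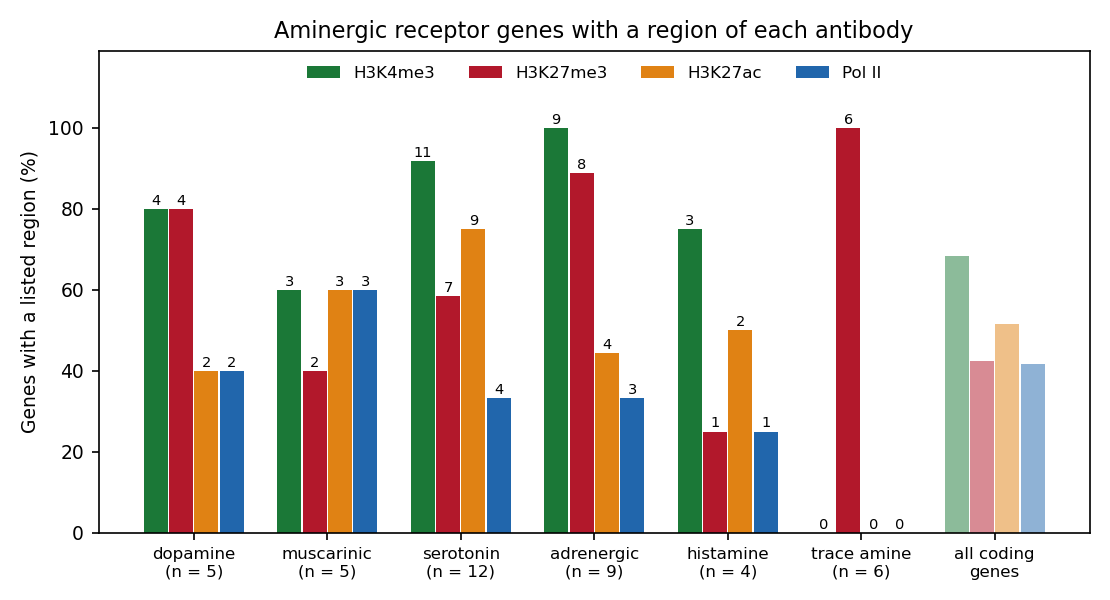
Percentage of genes with a listed region of each antibody (y axis) in the dopamine receptor genes, in 5 other aminergic receptor families and in all coding genes (paler bars, right). Numbers above bars are gene counts. H3K27me3 is listed at 4 of 5 dopamine receptor genes and 8 of 9 adrenergic receptor genes, and the trace amine receptor genes have that mark alone.

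The last comparison took 36 other genes of the dopamine pathway, by role. Genes that act after the receptor carried active marks, and those outside the G protein group had no H3K27me3. All 8 G protein genes had H3K4me3, H3K27ac and Pol II. H3K27me3 was listed at 3 of the 8 (37.5%), near the 42.5% of coding genes. Gnal, the stimulatory G protein alpha subunit of striatal neurons, had 4.7 kb of H3K27me3 beside 15.7 kb of Pol II, and Gnai2 had 6.6 kb. At Gnas all other marks lay inside 148.8 kb of H3K27me3, as at Drd1a and Drd2. H3K27me3 was listed at none of 5 cyclase and kinase genes, 5 phosphoprotein and phosphatase genes and 11 regulators, and all of these had H3K4me3 and H3K27ac. Adcy5, the adenylyl cyclase on which both receptors act, had H3K4me3 over 44.5 kb and Pol II over 105.2 kb. Pol II was not listed for Prkar1b, a regulatory subunit of protein kinase A, and Adrbk1, a receptor kinase gene, and was listed for the others.

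Genes for dopamine supply differed from those for the response to it. Th and Ddc, the synthesis enzymes, had H3K27me3 alone, over 87.6 and 8.0 kb. Slc6a3, the plasma membrane transporter, and Slc18a2, the vesicular transporter, had H3K4me3 inside H3K27me3 regions of 85.4 and 18.3 kb, the marks found at Drd5. Maoa, a breakdown enzyme, had H3K4me3, H3K27ac and Pol II without H3K27me3, and Maob had no listed region. Over all 36 genes, 33 had H3K4me3 (91.7%, against 68.4% of coding genes), 7 H3K27me3 (19.4%, against 42.5%), 31 H3K27ac (86.1%, against 51.5%) and 29 Pol II (80.6%, against 41.7%). At the receptors themselves, H3K27me3 was listed at 4 of 5 genes.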

How the data were processed

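Chromatin immunoprecipitation was profiled with 4 antibodies, in 1 library each, against 1 input. Bowtie 0.12.7, MACS 1.4 and build mm9 are named, with no role, per the submitters' processing notes. Each deposited list gives regions with a transcript, a symbol and the authors' score over input, on a scale that is not stated. Per the list names, regions lie within 3 kb of a start site. No region was narrower than 2500 bp, and bounds lay on a 100 bp grid. Scores were used only within a list. Where scores for a region differed, the highest was taken.

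Transcripts were matched to GRCm38.p6 RefSeq genes by accession (97.4% to 98.0% of lines) and otherwise by symbol. Lines without a gene (0.244% to 0.669%) were left out. The background was 21031 coding genes. A gene carried a mark when a region was listed for it, and its widest region gave the width. A percentile is the share of a list at or below a value. Overlap meant 1 bp or more. RefSeq promoter windows, on another build, were not placed on the regions. Protein sequences were not analysed here, and some genes are not reported here.

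No test was possible with 1 library per antibody, and depth is unknown. Interval functions were tested on simulated data. Named were the 5 members, genes sharing their regions, all genes of role groups of 9 or fewer, genes of longer groups with all or no marks, and the 5 genes most like each member. Flanking genes were taken by position, and other names were chosen after their values were seen. The members and lists were chosen with earlier results of these data known. Alternatives were the upper 50% of each list by score, lists of 7799 regions each, ties by position, stricter overlaps, joined regions and other backgrounds. Scripts ran in Python 3.11.15 with pandas 2.3.3 and numpy 2.4.6, and figures were drawn with matplotlib 3.10.9.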

Additional observations from a re-analysis of the deposited data

How the results depend on the processing

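No paired analysis was possible because each antibody has 1 library and the result comes from no test. Of 51 repeats of the counts, 38 stayed within 1.5 times of the reported count. The Pol II list is the shortest, with 7799 regions, so Pol II counts could not change with lists of equal length. In the upper 50% of scores of each list, dopamine receptor genes with H3K4me3, with H3K4me3 and H3K27me3, and with all 4 antibodies each came to 0, and those with Pol II to 1 (Drd1a). In that setting the other pathway genes with H3K27me3 came to 4, and the comparison receptors to 15 with H3K4me3, 11 with H3K27me3, 11 with H3K27ac and 6 with Pol II. With lists of equal length, the dopamine receptor genes with H3K4me3, with H3K4me3 and H3K27me3, and with all 4 antibodies each came to 1 (Drd1a), and the comparison receptors with H3K4me3 to 15. Every H3K4me3 score of the members is below its list median, which removes them from the upper 50%, and for the other counts the cause was not tested. H3K27me3 and H3K27ac at the members were kept in both settings. Joining regions within 1000 bp changed none of the 12 widths. With the upper 50% by score as background, width percentiles fell for all 12 regions, for example to 67.1 for H3K27me3 at Drd1a and 3.33 at Drd4. With promoters of H3K4me3 genes as background, the CpG percentile of Drd5 was 90.9 and that of Drd3 5.86. Unknown depth and the tie to start sites limit what an absent region shows.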

Other observations

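The 49 genes with H3K4me3, H3K27ac and Pol II all inside H3K27me3, the set that holds Drd1a and Drd2, also held other receptor and striatal factor genes. The names that follow were chosen after their values were seen. At Adora2a, which encodes an adenosine receptor of indirect-pathway neurons, H3K27ac lay over 21.3 kb inside 94.5 kb of H3K27me3. Gpr6, an orphan receptor gene of the same neurons, had 7.2 kb inside 124.9 kb, and Sstr4, a somatostatin receptor gene, had 5.5 kb inside 21.2 kb. Transcription factor genes in the set were Sp9 (21.8 kb inside 24.2 kb), Zfp503 (16.9 kb inside 103.4 kb), Six3 (16.3 kb inside 53.4 kb), Isl1 (13.5 kb inside 50.2 kb) and Ebf1 (7.8 kb inside 77.3 kb). Cux2, a gene of cortical neurons, was in the set too, with H3K27ac over 2.7 kb.

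Genes with Pol II past the downstream end of H3K4me3, as at Drd1a (5.8 kb), were led by Phactr1 (129.8 kb), the phosphodiesterase gene Pde10a (83.5 kb), Adcy5 (61.7 kb) and Ppp1r1a (33.7 kb). Arpp21 (5.5 kb) and the activity-regulated gene Nr4a1 (4.7 kb) had a reach close to that of Drd1a. Among the 17 with H3K27me3, 1110017D15Rik (3.9 kb) and Tac1 (3.8 kb) came after Drd1a. Some genes share a region with a neighbour, so the 142 genes are not separate events. H3K27ac wider than H3K4me3 was also found at Arpp21 (18.2 against 12.3 kb) and Egr1 (12.1 against 10.3 kb), neither of which had H3K27me3.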
